A study of Homo sapiens with 4 samples.

Results

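The regions described here are 8903 intergenic regions of H3K9la, histone H3 lactylated at lysine 9, that were found near protein-coding genes in both deposited peak lists of the study. Each is a record of the sg3 list on chromosomes 1 to 22 or X, narrower than 5000 bases, that overlaps exactly 1 record of the V2 list. Its summit, the base of highest signal, lies outside every protein-coding gene of RefSeq GRCh38.p14, more than 1 kb and at most 100 kb from the nearest one. The rule places the summit only, and 23 of the regions extend into a protein-coding gene. The sg3 list holds 56875 records, of which 55147 lie on these chromosomes. Narrow width left 54402, overlap with 1 V2 record left 25013, and a summit outside genes left 11859. Of these, 10856 were more than 1 kb from a gene and 8903 no more than 100 kb from one, which is 15.7% of the sg3 list. They pair with 8694 distinct V2 records, 21.6% of the 40332 in that list. The regions were thus chosen by measured values, namely presence in both lists, width, summit position and gene distance, and these are given as description.

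The cells are KYSE30, an established line of oesophageal squamous cell carcinoma that all libraries share, grown in DMEM with 10% serum. Each of the arms, sg3 and V2, has 1 library precipitated with an antibody to H3K9la and 1 input library, 4 samples in all. The study's title presents SIRT3, a deacylase best known from mitochondria, as an enzyme that removes this mark. What sg3 and V2 stand for, and whether either is a single clone, is not stated in the sources used here. The V2 peak list was deposited with the V2 input sample, and read depth is not given for any library, so no depth can be set beside a value. With 1 library per arm there is no replicate, no test between arms and no p-value. Intervals in brackets are exact Clopper-Pearson 95% intervals, which cover counting error only. Neighbouring regions share a chromosome segment and are not independent, so these intervals are too narrow.

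Histone lactylation is the attachment of a lactyl group, derived from lactate, to lysines of histone tails. It links the output of glycolysis to chromatin and has been mapped mostly at active promoters and enhancers. An enhancer is a stretch of DNA, often between genes, at which transcription factors bind and from which a promoter at some distance can be activated. A peak of a histone mark between genes does not say which gene it acts on, so each gene named below is the nearest in position only.

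The few stretches of these regions whose sequence could be read are miRNA hairpins and 300-base windows around annotated transcript starts. Of 222 windows that overlap a region, 200 are of long non-coding RNAs and 22 of protein-coding genes. Only stretches of RNA genes are shown, to make visible what a shared intergenic region can contain. Of 1562 RefSeq hairpins, 12 overlapped 11 regions. The best known of these are the miR-200c and miR-141 pair, which represses the ZEB factors and so favours the epithelial state, and let-7i, a member of the growth-restraining let-7 family. Mature RefSeq sequences (GRCh38.p14) are given 5′ to 3′ with the seed, bases 2 to 8, in capitals. They lie on the plus strand at chr12:6963742-6963764, chr12:6964155-6964176 and chr12:62603691-62603712.
hsa-miR-200c-3p: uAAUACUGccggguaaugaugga
hsa-miR-141-3p: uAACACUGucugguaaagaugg
hsa-let-7i-5p: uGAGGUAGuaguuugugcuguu
The seeds of miR-200c-3p and miR-141-3p differ by U4C, counted from the 5′ end of the mature RNA with the base of miR-200c-3p first. Both hairpins lie in 1 region, chr12:6963235-6964291, which is 1777 bases from its nearest protein-coding gene, PHB2, a prohibitin of the inner mitochondrial membrane. Fold enrichment, the authors' ratio of ChIP signal to background at the summit, was 7.91 for this region in the sg3 list and 4.95 for its V2 partner. The lists were scaled separately, so pairs of values like these are set side by side as deposited and give no fold between the arms. The V2 partner covers all of the MIR200C hairpin and ends at base 6964105, inside the MIR141 hairpin, which runs from 6964097 to 6964191. The let-7i hairpin lies in chr12:62602256-62604118, 3181 bases from MON2, a membrane trafficking gene. Its fold enrichment was 6.19 in sg3 and 4.07 for the V2 partner.

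The other set shown is of long non-coding RNA (lncRNA) starts. A window of 250 bases before to 50 after an annotated lncRNA start lay wholly inside a region in 95 cases, for 85 lncRNAs in 79 regions. Of these windows, 25 hold the sg3 summit and 18 hold the summits of both lists. Windows of 4 lncRNAs are printed 5′ to 3′ on the strand of the lncRNA, from RefSeq (GRCh38.p14). In the first 3, which are rich in CpG, capitals mark the CpG pairs. They belong to MIR34AHG, the host transcript of the p53 target miR-34a (chr1:9182289-9182588, minus strand), CHASERR, a lncRNA that restrains its neighbour CHD2 (chr15:92883046-92883345, plus strand), and FLJ46875 near NR4A2 (chr2:156342071-156342370, minus strand). In the last, LOC100505782 near the hair keratin gene KRT31 (chr17:41402166-41402465, plus strand), capitals mark a match to TGANTCA, the site that AP-1 factors of the FOS and JUN families bind.
MIR34AHG: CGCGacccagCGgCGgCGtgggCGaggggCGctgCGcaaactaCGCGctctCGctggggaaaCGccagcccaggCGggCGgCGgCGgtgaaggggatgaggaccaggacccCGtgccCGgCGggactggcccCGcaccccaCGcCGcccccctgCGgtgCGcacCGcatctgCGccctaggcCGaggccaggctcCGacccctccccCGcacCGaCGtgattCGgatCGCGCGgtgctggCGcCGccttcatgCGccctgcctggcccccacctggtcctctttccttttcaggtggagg
CHASERR: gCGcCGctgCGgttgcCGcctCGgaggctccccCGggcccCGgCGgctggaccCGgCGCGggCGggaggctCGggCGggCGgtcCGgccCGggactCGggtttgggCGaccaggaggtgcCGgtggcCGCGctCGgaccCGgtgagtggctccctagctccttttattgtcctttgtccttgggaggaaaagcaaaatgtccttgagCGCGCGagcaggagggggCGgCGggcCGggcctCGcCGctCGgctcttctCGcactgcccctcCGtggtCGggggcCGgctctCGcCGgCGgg
FLJ46875: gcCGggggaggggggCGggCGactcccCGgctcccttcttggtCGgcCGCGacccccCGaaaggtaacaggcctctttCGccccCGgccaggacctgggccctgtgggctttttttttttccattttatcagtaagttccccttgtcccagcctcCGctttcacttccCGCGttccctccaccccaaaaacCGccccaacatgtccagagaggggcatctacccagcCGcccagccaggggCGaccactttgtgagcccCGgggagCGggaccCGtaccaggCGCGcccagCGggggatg
LOC100505782: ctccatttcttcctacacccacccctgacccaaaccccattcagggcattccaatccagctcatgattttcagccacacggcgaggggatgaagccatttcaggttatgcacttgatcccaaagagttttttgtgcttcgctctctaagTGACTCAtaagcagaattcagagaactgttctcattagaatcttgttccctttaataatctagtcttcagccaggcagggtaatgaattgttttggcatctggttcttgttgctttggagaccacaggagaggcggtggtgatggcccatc
The MIR34AHG window has a GC content of 75% with 38 CpG pairs and lies in a region that measured 6.97 in sg3 and 8.59 in V2. The CHASERR window has a GC content of 75.3% and 40 CpG pairs, and its region measured 4.25 in sg3 and 5.00 in V2. In the FLJ46875 window these values were 66.7% and 22, with 7.24 in sg3 and 4.85 in V2. The LOC100505782 window differs from those, with a GC content of 47.0% and 4 CpG pairs, and its region measured 7.05 in sg3 and 5.92 in V2. Both summits lie in the window for MIR34AHG, CHASERR and FLJ46875 but not for LOC100505782, and in every one of the 4 the window lies wholly inside the sg3 region.

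Across all 95 windows the median GC content was 63.7% and the median number of CpG pairs was 15. The 50 lncRNA windows wholly inside intergenic sg3 records with no V2 overlap had medians of 60.2% and 7.5, and all 12829 lncRNA windows had 50% and 5. The 954 protein-coding windows inside shared records at gene ends were richer, with 71.3% and 32.5. TGANTCA occurred on either strand in 10 of the 95 windows (10.5%, 5.16 to 18.5) against 10.3% of all lncRNA windows. The TEAD core CATTCC, read on both strands, occurred in 8.42% (3.71 to 15.9) against 17.1%, and the RUNX core TGTGGT in 16.8% against 16.2%. In the 954 gene-end windows, also rich in GC, the shares were 4.19% for TGANTCA, 9.85% for the TEAD core and 6.60% for the RUNX core. A TEAD share below 17.1% was thus also seen at gene ends. The interval of the 50 windows includes both 8.42% and 17.1%, and the reason for the low share was not tested. Some of the 95 windows overlap each other, so the same site can count more than once and the intervals are too narrow. A match is a description of letters and not a bound site.

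The remaining hairpins are of less studied miRNAs. By −log10 q in sg3, the strongest of these regions holds MIR9902-2 near HCAR2, a receptor for niacin and beta-hydroxybutyrate, with fold enrichments of 9.23 in sg3 and 7.10 for V2. MIR9902-1, with the same mature sequence, overlaps another region near HCAR2, with 5.63 in sg3 and 7.89 in V2. How reads with several alignments were handled is not stated, so the values at both copies are uncertain. MIR4425 lies in a region 60022 bases from RUNX3, a RUNX transcription factor, with 9.86 and 11.7. MIR6076 lay in a region 70081 bases from ARF6, a small GTPase of membrane traffic, with 9.42 and 11.4. Lower values were seen at MIR4734 near MLLT6, at 3.55 in sg3 and 2.58 in V2. The summit itself lay in a miRNA gene in 0 of 8903 regions, while 1900 (21.3%, 20.5 to 22.2) had it inside a lncRNA gene and 278 (3.12%) within 1 kb of a lncRNA start. Among the 8319 intergenic sg3 records near genes with no V2 overlap, those shares were 24.7% (23.8 to 25.7) and 3.98%. Transcript starts and strands on chromosome 8, which has 524 of the regions, were not analysed here, so the windows and counts at lncRNA starts and the upstream shares do not cover it.

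The median fold enrichment of the regions was 5.15 in the sg3 list (quartiles 3.89 and 7.12) and 5.35 for the V2 partners (4.25 and 7.01). The medians over the complete lists were 4.97 in sg3 and 5.22 in V2. A −log10 q of 20 or more, a high confidence in the authors' peak call, was reached by 3508 regions in sg3 (39.4%, 38.4 to 40.4), where 32.3% of all sg3 records reach it. Their V2 partners reached it in 2406 cases (27.0%, 26.1 to 28.0), where 28.2% of all V2 records do. It was reached in both lists by 1873 regions, in sg3 alone by 1635, in V2 alone by 533 and in neither by 4862. The regions are thus near the level of their lists, and most are peaks of modest strength in both arms. The complete sg3 list also holds records with no V2 overlap, so the choice by presence in both lists enters the sg3 comparison. A fold enrichment of 10 or more was seen in 822 regions in sg3 (9.23%, against 7.76% of the list) and in 722 in V2 (8.11%, against 7.89%), and in both for 322.

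Strength differed between classes of shared records. Of the 4549 shared records at gene ends, 74.9% had a −log10 q of 20 or more in sg3, and of the 9608 in gene bodies 43.1% did. Intergenic sg3 records near genes that overlap no V2 record reached it in 6.03% of cases. The choice of regions by presence in both lists enters the last of these differences. Of 18410 sg3 records of this width and position, 8903 (48.4%, 47.6 to 49.1) overlapped 1 V2 record, 8319 overlapped none and 1188 overlapped more than 1. Among all sg3 records of this width on the same chromosomes, 25013 of 54402 overlapped 1 V2 record. The intergenic share is near that general share.

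The regions and gene ends also differed in which list held the higher fold enrichment. The sg3 value was the higher in 4069 regions (45.7%, 44.7 to 46.7), and the median ratio of sg3 to V2 was 0.960. At gene ends the sg3 value was the higher in 81.8% (80.6 to 82.9) of shared records with a median ratio of 1.34, in gene bodies in 50.1% with a ratio of 1.00, and more than 100 kb from genes in 49.8%. Since the lists were scaled separately, the classes are what can be compared here. When both lists were cut to equal length by −log10 q, the share for the intergenic regions was 53.4%, on the other side of an even split. Among records whose V2 partner had a −log10 q from 20 to 40, the sg3 value was the higher in 35.8% of the intergenic regions (33.6 to 38.1), 40.7% of gene-body records and 81.0% (78.7 to 83.1) of gene-end records. In the band from 40 to 80 these shares were 34.0%, 34.3% and 71.8%. Banded on the sg3 value instead, from 20 to 40, they were 64.7%, 66.8% and 86.7%. Gene ends had the highest share in each band, and the intergenic regions were closer to gene bodies than to gene ends in each.

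**Figure D1:**
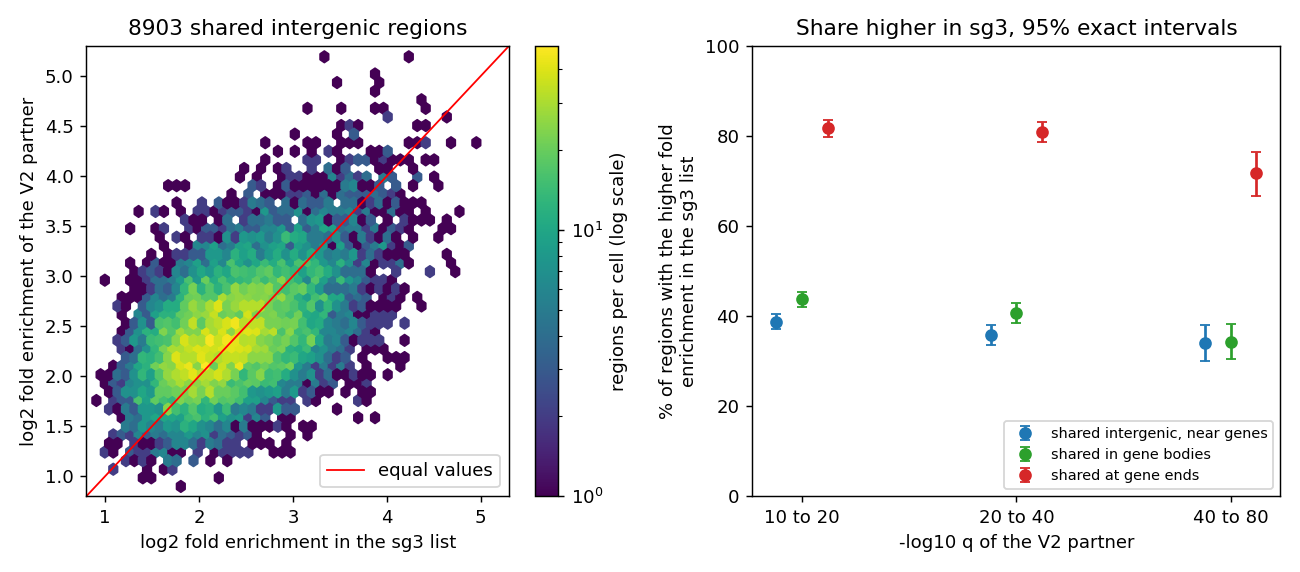
Left, the density of the 8903 regions by log2 fold enrichment in the sg3 list (horizontal) and of the V2 partner (vertical), with a line of equal values. Right, the percentage of shared records with the higher fold enrichment in sg3, in bands of V2 −log10 q, with exact 95% intervals; gene-end records (red) sit at 71.8% to 81.7% and the intergenic regions (blue) at 34.0% to 38.8%.

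Across the 8903 regions the values of the lists moved together in part. Spearman's rho was 0.481 for fold enrichment and 0.596 for −log10 q, and Pearson's r of log2 fold enrichment was 0.526. These describe sites called in both lists, which share their base composition and mappability, and each list is 1 library.

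By −log10 q, the strongest regions of sg3 are led by a record on chromosome 5, from 42950873 to 42953645, whose nearest gene is the uncharacterised LOC124900971. In sg3 its fold enrichment was 24.7 and its −log10 q 213, and in V2 these were 23.9 and 159, with summits 5 bases apart. By −log10 q it is also the third of the V2 partners. Next in sg3 by −log10 q was a region 17526 bases downstream of ACBD3, a Golgi scaffold protein, with fold enrichments of 12.3 in sg3 and 11.3 in V2. One upstream of CCDC200 had 7.97 in sg3 and 4.37 in V2. Beside NPEPPS, a cytosolic aminopeptidase, the values were 19.1 and 12.2. A region 1373 bases from IGFL1, of the insulin growth factor-like family, had 17.1 and 15.4. The other strong regions were close to MN1, a transcriptional co-regulator (21.0 and 20.5), to MYSM1, a histone H2A deubiquitinase (17.2 and 13.6), and at the far end of the LRATD2 neighbourhood (17.1 and 9.45).

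EZR, which encodes ezrin, the linker of actin to the plasma membrane, had 2 of the 10 strongest regions of sg3. The first, 4947 bases wide and the widest region of all, measured 17.8 in sg3 and 18.2 in V2. The second, 32583 bases upstream, measured 18.6 in sg3 and 19.7 in V2. In these the arms gave close values.

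By the same measure, the strongest regions of V2 lie upstream of RAP2B, a RAS-like small GTPase. A region 22293 bases upstream measured 29.4 in V2 and 14.3 in sg3. Beside it, 1 V2 record of 7534 bases with a value of 36.5, the highest of any V2 partner, spans a pair of separate sg3 regions with 10.0 and 18.4. That V2 record counts once, although it is the partner of both. Near MAP2, which encodes a neuronal microtubule-associated protein, a region 53548 bases upstream had 30.5 in V2 and 10.9 in sg3. Its summits were 42 bases apart. GPCPD1, a phosphodiesterase of choline metabolism, had 15.1 in V2 and 11.7 in sg3, and WEE1, a kinase that delays entry into mitosis, had 19.5 and 16.2. CFAP141, a gene of cilia and flagella, had 15.9 in V2 and 12 in sg3. The V2 value was the higher of the pair at each of these 4 and at the RAP2B regions, as the ranking on V2 favours.

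The V2 partners were narrower. The median width of a region was 723 bases in sg3 (quartiles 512 and 1149) and that of a V2 partner 586 (450 and 892). The sg3 record was the wider in 6183 regions (69.4%, 68.5 to 70.4), with a median width ratio of 1.14, against 91.9% at gene ends and 72.5% in gene bodies. The V2 partner lay wholly inside the region in 3929 cases (44.1%), and the region wholly inside its partner in 1047. The regions cover 8.38 Mb, their partners 6.63 Mb, and 5.95 Mb is covered in both. With lists of equal length the share wider in sg3 was 74.5%.

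The largest ratio of widths, 10.7, was found 83568 bases downstream of NUBPL, an assembly factor of respiratory complex I, where 4805 bases in sg3 faced 447 in V2. PKP1, encoding the desmosomal plaque protein plakophilin, had a region of 3341 bases with a partner of 373. Its fold enrichment was 15.5 in sg3 and 6.36 in V2. The regions near NT5E, KRT85 and IRF2BPL had ratios of 9.42, 8.21 and 8.16. At the other end, a region near the RNA helicase gene DDX47 was 385 bases wide with a partner of 4935. CLDN3, a claudin of tight junctions, had 506 bases facing 4968, and ID3, an inhibitor of basic helix-loop-helix factors, 364 facing 2594. ZCCHC8 and SMG9 had the other small ratios, 0.125 and 0.130.

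The summits of a pair lay close together, which the choice of regions by overlap of narrow records favours. The median offset between the summits of a pair was 50 bases, and 6429 pairs (72.2%) lay within 100 bases of each other, against 82.1% at gene ends. The V2 summit fell inside the region in 8470 cases (95.1%, 94.7 to 95.6).

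The median distance from summit to nearest gene was 17730 bases. By distance, 1755 regions lay from 1 to 5 kb, 1290 from 5 to 10, 2314 from 10 to 25, 1868 from 25 to 50 and 1676 from 50 to 100 kb. The median fold enrichment in these bins ran from 5.02 to 5.32 in sg3 and from 5.06 to 5.6 in V2, so strength hardly varied with distance. The share of all intergenic sg3 records that had 1 V2 partner ran from 46.5% to 50.7% over the same bins. At the edges of the rule, the region just inside 1 kb was 1001 bases from CCT2 and the record just outside was 999 from EMD. At 100 kb they were 99991 bases from PDC and 100022 from EBF2. At the width limit they were the EZR region of 4947 bases and a record of 5019 near CSNK1D. Fold enrichments on the inner side were 4.48, 6.45 and 17.8 in sg3, and on the outer side 6.94, 9.57 and 8.73.

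**Figure D2:**
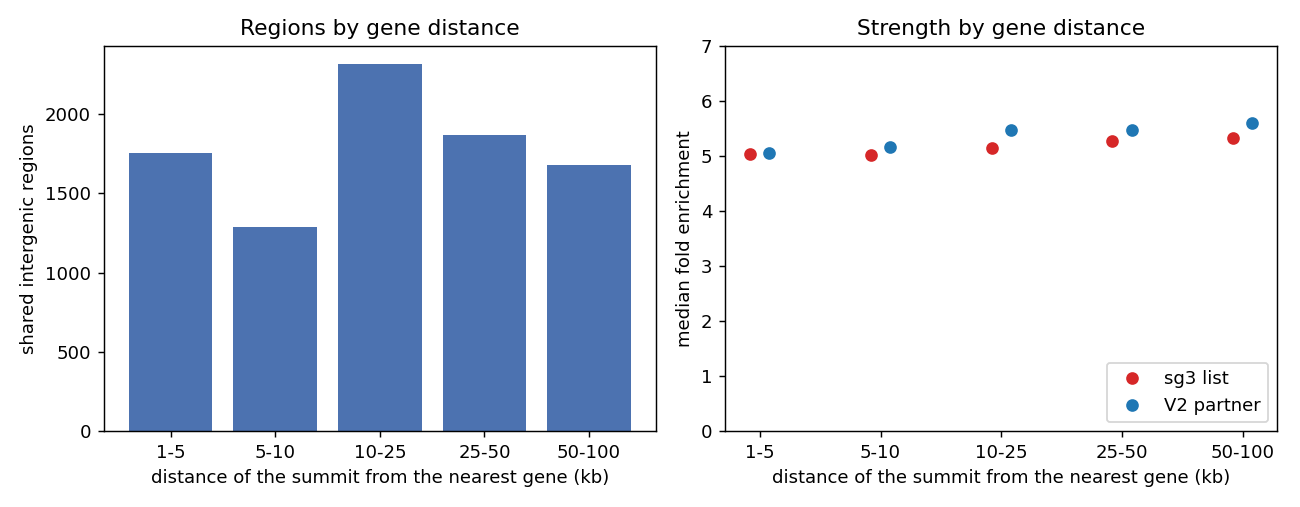
Left, the number of regions by distance of the summit from the nearest protein-coding gene, in kb bins of unequal width. Right, the median fold enrichment in each bin for the sg3 list (red) and the V2 partners (blue); the medians lie between 5.02 and 5.6 at every distance.

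The strand of the nearest gene was unknown for 2126 regions, on chromosome 8 and elsewhere, and known for 6777. Of these, 4099 (60.5%, 59.3 to 61.7) lay upstream of the gene and 2678 downstream. The upstream share was 67.7% (65.1 to 70.2) from 1 to 5 kb and 54.7% (52.0 to 57.4) from 50 to 100 kb. For intergenic sg3 records with no V2 overlap it was 55.2% (53.9 to 56.4). The assignment to the nearest gene was not the only possible one, since 5609 regions have a gene within 100 kb on both sides.

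The regions were unevenly spread over chromosomes. There were 29.4 per 10 Mb over chromosomes 1 to 22 and X, with 67.4 on chromosome 19 and 54.7 on chromosome 17, both dense in genes. Chromosome X had 11.6 and chromosome 13 had 14.6. As a share of all sg3 records, they ranged from 12.4% on chromosome 16 to 21.8% on chromosome 18.

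Many regions stood in groups along the chromosome. The median gap between neighbouring regions was 3156 bases, and joining regions within 12.5 kb of each other gave 3268 groups. Of these, 1496 were single regions and 676 were pairs. The 1096 groups of 3 or more held 6055 regions, and 486 groups of 5 or more held 4011 (45.1% of all). Regions in the latter lay farther from genes than single regions, with median distances of 21702 and 10973 bases. Median fold enrichments in sg3 were 5.14 in groups of 5 or more and 4.91 for single regions, and in V2 they were 5.63 and 4.85. A −log10 q of 20 or more in sg3 was reached by 39.9% (38.4 to 41.5) in those groups and by 34.4% (32.0 to 36.8) of single regions.

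The largest group spans chr1:8029603-8119203 upstream of ERRFI1, a feedback inhibitor of the EGF receptor, and holds 36 regions that cover 36.3% of its bases. Fold enrichment over these ran from 2.58 to 12.1 in sg3 (median 5.73) and from 2.79 to 22.3 in V2 (median 6.91). The next, chr14:49864252-49968459, holds 35 regions on both sides of ARF6, with medians of 4.47 in sg3 and 4.83 in V2. A group of 32 at chr6:158823488-158940002 lies between EZR and RSPH3, a gene of motile cilia, with medians of 5.81 and 7.0. LRATD2, a gene of the LRAT domain family, had a group of 31 on chromosome 8 with medians of 5.19 and 5.81. RAP2B had 28 regions at chr3:153068730-153157948 with medians of 5.43 and 6.24. In each of these 5 groups the V2 median was above the sg3 median, and the ranges of the arms overlapped. The same order held over all regions in groups of 5 or more (5.63 in V2 and 5.14 in sg3), so it is not particular to these groups.

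**Figure D3:**
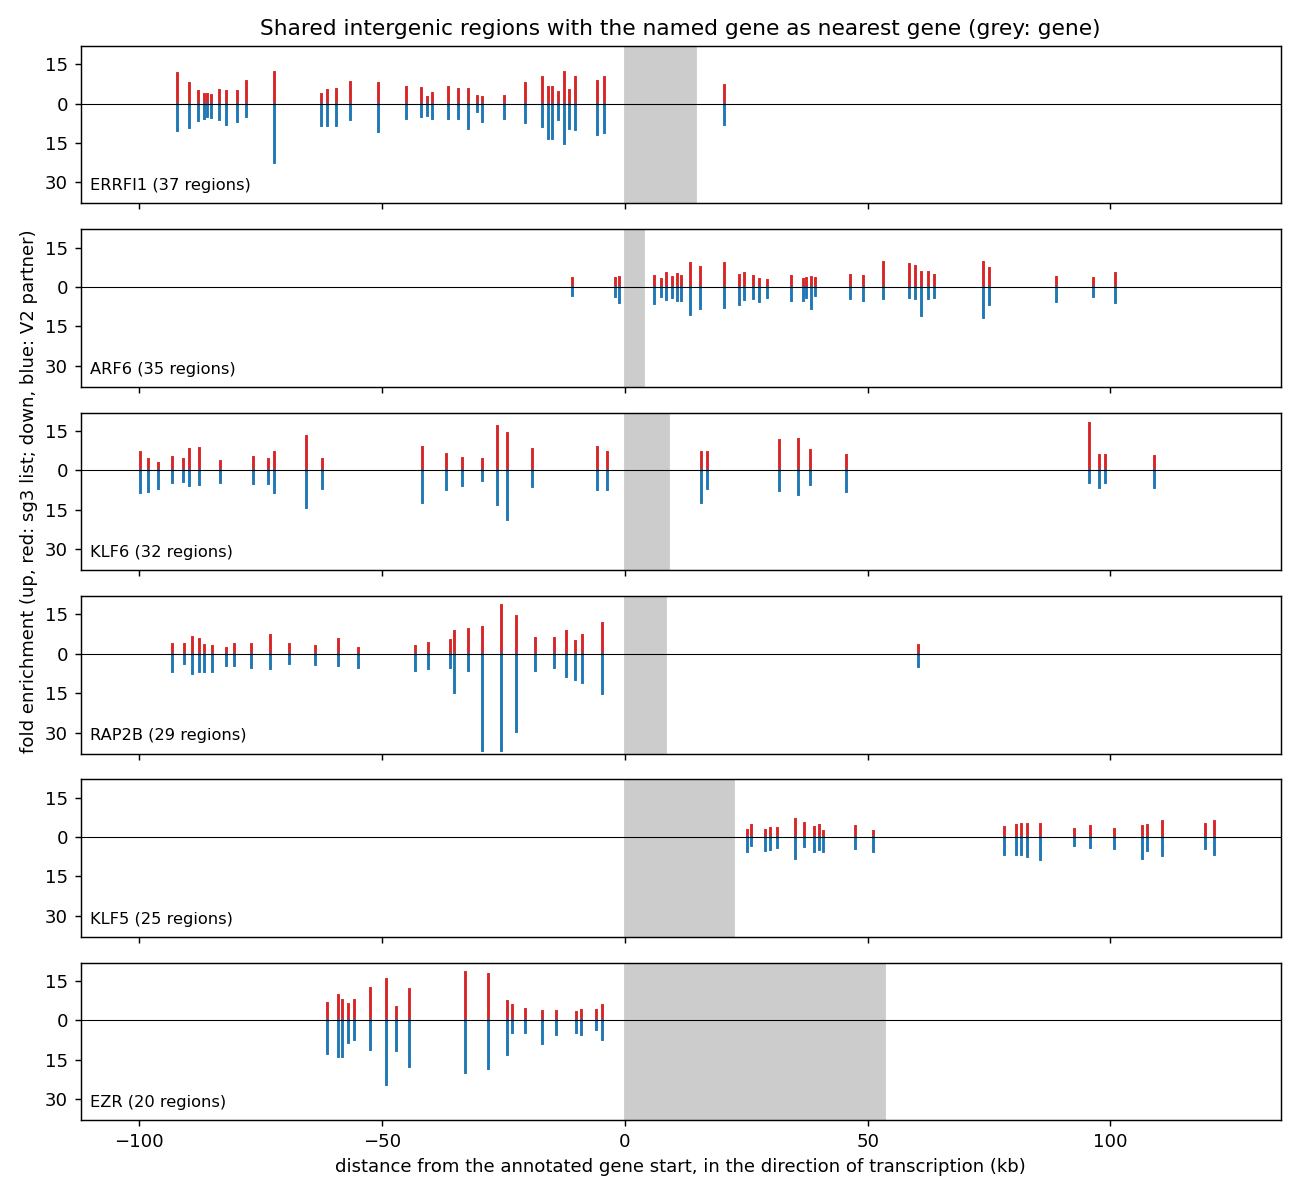
Fold enrichment of each shared intergenic region around 6 genes, plotted by distance from the gene start in kb in the direction of transcription, upward in red for the sg3 list and downward in blue for the V2 partner, with the gene in grey. The 36 regions upstream of ERRFI1 and the 25 downstream of KLF5 lie on 1 side of the gene; regions of RAP2B that share a V2 partner show the same V2 value.

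By nearest gene, 2847 of 19970 protein-coding genes (14.3%) had at least 1 region, and 1165 of those had only 1. At least 5 regions were nearest to 537 genes (2.69%), and 10 or more to 154, which account for 2264 regions (25.4%). ERRFI1 and YWHAZ, a 14-3-3 adaptor protein, had 37 each. LRATD2 had 36, ARF6 had 35 and H3-5, a histone H3 variant gene, had 34. KLF6, a zinc finger factor induced early by growth signals, had 32, and RAP2B and MYC, the growth-promoting transcription factor, had 29 each. KLF5, a zinc finger factor of basal epithelium, and POU5F1B, a retrogene of the pluripotency factor OCT4, had 25 each, as did NEBL, which encodes nebulette, an actin-binding protein. YWHAZ, LRATD2, MYC and POU5F1B all lie on chromosome 8.

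These genes differed in where their regions lie. ERRFI1 had 36 of its 37 upstream and RAP2B 28 of 29 upstream, whereas all 25 of KLF5 and 32 of 35 of ARF6 were downstream. KLF6 had 22 upstream and 10 downstream. They also differed in strength. Median fold enrichment in sg3 was 6.92 at KLF6 (range 2.98 to 18.2) and 4.29 at KLF5 (2.29 to 6.92). In V2 the medians were 6.61 at KLF6 and 5.11 at KLF5. YWHAZ had medians of 4.64 in sg3 and 5.19 in V2, H3-5 had 4.21 and 5.3, and MYC had 4.67 and 5.14. Among the 10 genes with most regions, KLF6 and POU5F1B (5.02 and 4.92) had the higher median in sg3 and the others in V2. Over all regions the median was also the higher in V2, at 5.35 against 5.15 in sg3.

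Genes with more of these regions more often also carried the mark at their own ends. Another sg3 record lay within 1 kb of a gene end for 47.0% of all protein-coding genes, and another V2 record for 28.4%; the regions themselves and their partners were left out of this count. For genes with no region the sg3 share was 42.9% (42.2 to 43.7), with 1 region 65.5% (62.7 to 68.2), and with 10 or more 89.0% (82.9 to 93.4). In V2 the shares were 24.2%, 45.4% and 74.7% (67.0 to 81.3). Of the genes marked at an end in sg3, 44.6% lacked a V2 record there when they had no region and 16.1% (10.3 to 23.3) when they had 10 or more. Gene ends near many shared regions were thus more often marked in both arms. Genes with many regions have more intergenic space of their own, with a median of 99.0 kb against 13.9 kb for genes with none. Among genes with 50 kb or more, the sg3 share still ran from 31.1% with no region to 87.2% (80.3 to 92.4) with 10 or more, and the V2 share from 16.7% to 72.2%. KLF5, NEBL and ZNF217, a zinc finger oncogene with 24 regions, are exceptions among the genes with 24 or more regions and had no such record in either list.

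**Figure D4:**
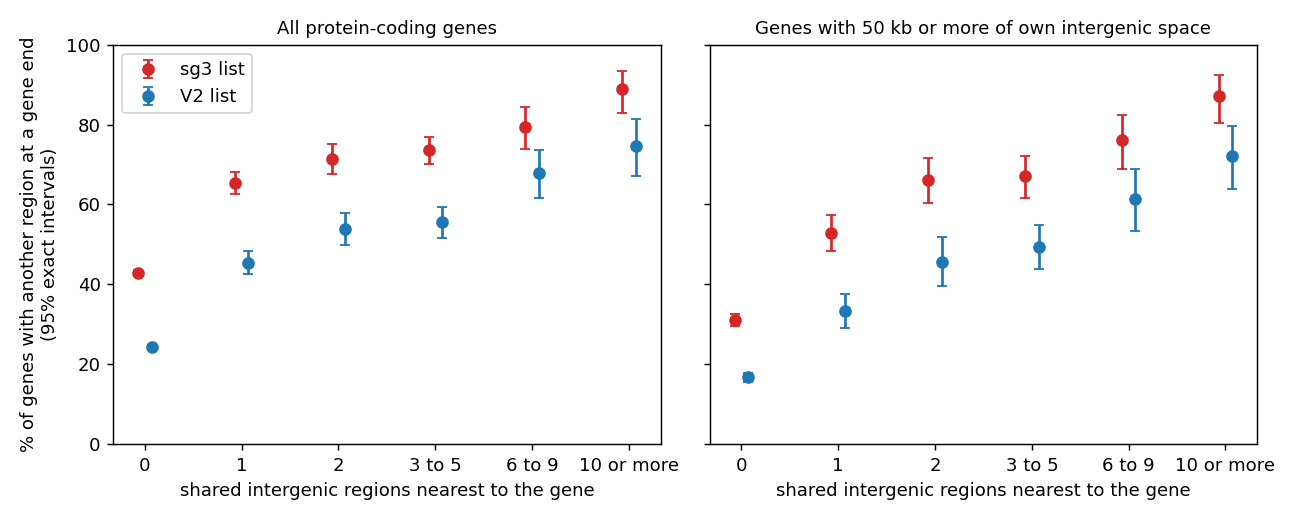
Percentage of protein-coding genes with another record within 1 kb of a gene end, by the number of shared intergenic regions nearest to the gene, for the sg3 list (red) and the V2 list (blue), with exact 95% intervals. Over all genes (left) the sg3 share runs from 42.9% to 89.0%, and over genes with 50 kb or more of their own intergenic space (right) from 31.1% to 87.2%.

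For each gene of a list, its strongest region is the one with the highest −log10 q in sg3, and the pair of values given for it is the fold enrichment in sg3 and in V2. This choice favours the sg3 value, so a pair does not show which list was higher over the regions of a gene. Gene lists were read against the 14.3% of all genes with a region, and against intergenic space, since a gene with more of it can collect more regions. All genes together had 1.13 regions per 100 kb of the space nearest to them. The 13 functional lists had 97 of 263 genes with a region (36.9%, 31.0 to 43.0), and the 5 lists of markers for other cell types had 10 of 75 (13.3%, 6.58 to 23.2). Among the functional lists, only the squamous, AP-1, integrin and NF-kB lists had an interval wholly above 14.3%. The interval of every other functional list includes that value. The lists were chosen with earlier results of these data known, and their counts are descriptions.

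Genes of squamous epithelium, the labelled cell type, had regions in 17 of 25 cases, 129 in all, or 8.03 per 100 kb. Of the 25 genes, 17 also had other records at their ends in both lists, where 27.8% of all protein-coding genes do. Among the transcription factors, KLF5 had 25 regions, GRHL2, an epithelial factor of the grainyhead family, 18, TFAP2A 17, KLF4 14 and TP63, the master regulator of stratified epithelium, 8. The strongest region, 10952 bases upstream of TFAP2A, measured 20.5 in sg3 and 19.8 in V2. At TP63 the strongest lay 79535 bases upstream with 9.70 in sg3 and 6.04 in V2. Among the desmosome genes, DSP, which encodes desmoplakin, had 13, with 10.0 in sg3 and 9.40 in V2 at the strongest. DSG3, a desmosomal cadherin of squamous cells, had 3, with 11.5 and 7.55. IVL, the cornified envelope protein involucrin, had a region 3014 bases upstream with 8.59 and 6.54. Of the keratin genes of stratified epithelium, KRT17 had 3 regions, KRT14 had 1, and KRT5, KRT6A and KRT13 had 0.

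AP-1 and other immediate-early genes, which respond within minutes to growth signals and stress, had regions in 12 of 20 cases, 101 in all, or 8.85 per 100 kb. KLF6 had 32, FOS 18 and DUSP1, a phosphatase of MAP kinases, 16. The strongest of KLF6, 24644 bases upstream, measured 14.3 in sg3 and 18.6 in V2. That of DUSP1 had 10.1 and 8.91. That of FOS, with its summit 1230 bases upstream and its record reaching into the gene, had 11.8 and 7.77. FOSL1, an AP-1 subunit of invasive epithelial tumours, had 11.7 and 12.1, and FOSL2 had 11.4 and 7.07. These pairs are chosen on sg3 and do not show which list was higher at a gene. Over all regions of a gene, the medians in sg3 and V2 were 5.55 and 6.75 at FOS and 5.56 and 5.71 at DUSP1. At KLF6 they were 6.92 and 6.61, so the order at each of these genes was the reverse of that at its strongest region. JUNB, FOSB, EGR1 and BTG2 had 0.

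Integrin, laminin and hemidesmosome genes, which anchor basal cells to the basement membrane, had regions in 13 of 21 cases, or 6.77 per 100 kb. ITGB1 and ITGA6, integrin chains of basal cells, had 9 each. The strongest of ITGB1 measured 13.7 in sg3 and 7.01 in V2, while that of ITGA6 measured 12.7 in sg3 and 21.2 in V2. LAMC1, a laminin gamma chain, had 8.55 and 11.1. NF-kB and inflammatory targets also had regions in 13 of 21 cases, at 3.46 per 100 kb. NFKBIA, the inhibitor that NF-kB induces, had 10 and the chemokine gene CXCL8 had 8. By −log10 q in sg3, the strongest of the list was at LIF, a cytokine of the IL-6 family, with fold enrichments of 10.7 in sg3 and 6.87 for V2, followed by TNFAIP2 with 10.5 and 5.52. The highest fold enrichment in sg3 among the strongest regions of these genes was at IL1B, with 12.1 and 6.36.

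EGF family ligands and ERBB receptors had regions in 5 of 15 cases. The receptor EGFR and the ligand AREG had 10 each, TGFA 7, BTC 6 and EREG 1. The strongest of AREG, 92635 bases away, measured 16.9 in sg3 and 7.28 in V2, and that of TGFA 13.6 and 6.70. BTC had 7.15 and 8.25, and EGFR 4.45 and 3.16 at a region 85678 bases upstream. The list had 2.5 regions per 100 kb. Of the TGF-beta pathway, 6 of 19 genes had a region, led by TGFBR3, a co-receptor, with 15.7 in sg3 and 10.1 in V2. SKI, a repressor of SMAD signalling, had 7.61 and 5.82, and the inhibitory SMAD7 had 9.44 and 4.53. YAP and TEAD factors and targets had 5 of 18, with AMOTL2, a YAP-binding target, at 16.8 and 10.0, YAP1 itself at 12.2 and 13.3, and the phosphatase PTPN14 at 8.23 and 10.9.

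Glycolysis and lactate transport, the source and route of lactate, had 7 of 22 genes with a region, at 3.11 per 100 kb. SLC16A1, which encodes the lactate transporter MCT1, had 6, the strongest with 9.32 in sg3 and 8.05 in V2. SLC2A3, a glucose transporter, had 5 with 6.28 and 5.55, and PGAM1, phosphoglycerate mutase, had 2 with 6.06 and 6.83. LDHA, which makes lactate from pyruvate, had 1 region 8754 bases upstream with 3.88 and 4.10. Of the sirtuins, histone deacetylases and acyl transferases, 2 of 23 had a region, HDAC1 with 1 and HDAC5 with 4. The region of HDAC1, 1141 bases upstream, measured 8.50 in sg3 and 4.14 in V2, and the strongest of HDAC5 measured 4.72 and 5.19. SIRT3 and the other sirtuin genes had 0. Records at gene ends in both lists were found for 13 of the 23, where 27.8% of all protein-coding genes have them. An intergenic region was found for 8.70% (1.07 to 28.0), an interval that includes the 14.3% of all genes.

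Of the other functional lists, mesenchymal genes had a region in 6 of 20 cases but only 0.719 per 100 kb, below the 1.13 of all genes. Hypoxia genes (0.724), cell cycle genes (0.5) and the sirtuin, deacetylase and acyl transferase list (0.719) were below it too. The strongest region of the repressor gene SNAI1 measured 9.88 in sg3 and 11 in V2, and that of SNAI2 measured 11 and 5.09. Hypoxia genes had 4 of 17, with NDRG1 at 8.16 and 4.17, VEGFA, the vascular growth factor, at 9.07 and 5.32, and ANGPTL4 at 5.21 and 4.56. Ribosomal protein genes had 5 of 20, at 3.2 per 100 kb. By −log10 q in sg3 the first were RPLP1 with 15.9 and 10.5, RPL11 with 12 and 6.11 and RPL10 with 6.87 and 4.05, while RPL3 had 8.7 and 2.87. Cell cycle genes had 2 of 23, CCND1, the cyclin of early cell cycle entry, with 7.08 and 3.86 and the inhibitor CDKN1A with 5.90 and 5.87.

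By list, 6.67% to 26.7% of the markers of other cell types had a region, with intervals that include the 14.3% of all genes. Per 100 kb the neuronal list had 1.33 regions, above the 1.13 of all genes, and the other marker lists had 0.304 to 0.62. Liver, blood and muscle each had 1 gene of 15 with a region. The neuronal list had 3 of 15, of which MAP2 carried 12 regions, GRIN1 and STMN2 1 each. Fibroblast and endothelial markers had 4 of 15 with 5 regions in all, none with a −log10 q of 20 or more in sg3. The liver gene CYP2E1, an enzyme of ethanol metabolism, had 3 strong regions, the strongest at 14.2 in sg3 and 7.43 in V2.

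**Figure D5:**
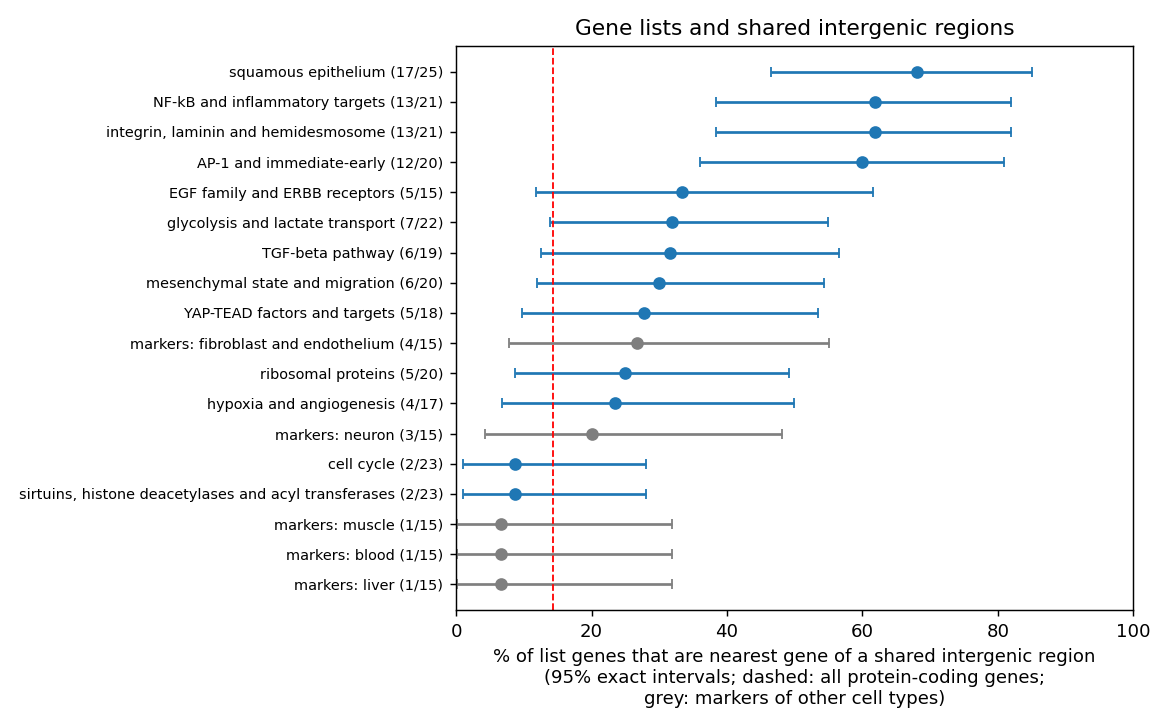
Percentage of the genes of each list that are the nearest gene of at least 1 shared intergenic region, with exact 95% intervals, counts in brackets and a dashed line at the 14.3% of all protein-coding genes. Squamous, integrin, NF-kB and AP-1 lists sit at 60% to 68%, and the marker lists of other cell types (grey) at 6.67% to 26.7%.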

How the data were processed

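H3K9la ChIP-seq of KYSE30 gave 1 peak list for each of the arms sg3 and V2. Per the submitters' processing notes, the build was hg38 and the tools named are MACS2 2.2.9.1, SAMtools 1.18, Bowtie2 2.5.1, Trim Galore 0.6.10 and FastQC 0.12.1. Command lines, the control library, read depth and the handling of reads with several alignments are not stated in the sources used here. Fold enrichment is the authors' deposited ratio at the summit, and the −log10 p and −log10 q are deposited too. The integer score deposited by the authors was not used, and the deposited summit offset served for position only.

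Regions were matched to V2 records at 1 base of overlap and to protein-coding genes of RefSeq GRCh38.p14, with Python 3.11.15, pandas 2.3.3, numpy 2.4.6 and scipy 1.17.1. The interval code was tested on simulated intervals. Strand came from the transcript start table, which covers 15811 of 19970 protein-coding genes. The space of a gene is the intergenic sequence more than 1 kb and at most 100 kb from genes that is nearest to it. The members and gene lists were chosen with earlier results of these data known. Regions named are the 10 with the highest −log10 q in each list, the 5 widest and 5 narrowest relative to V2, and those at each limit. Genes named are up to 3 of each list by their strongest region and the 10 with most regions, and the 5 largest groups are named. An item that this rule names is not reported here. Other genes were named after their values were seen. Alternatives were thresholds on −log10 q, equal list lengths, overlap, summit tolerance, distance limits, joining distance, both flanking genes and a wider window at non-coding genes. Bands of −log10 q and genes with 50 kb or more of space were added after seeing the data.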

Additional observations from a re-analysis of the deposited data

How the results depend on the processing

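No paired analysis was possible because each arm has 1 library, and GC content and motifs around the summits were not run because no genome was used. Requiring a −log10 q of at least 10 in both lists left 5218 regions, of which 63.2% reached 20 in sg3, 74.1% were wider in sg3, 78.8% had summits within 100 bases, and 592 groups held 3 or more. At a threshold of 5 the share reaching 20 was 43.2%. With lists of equal length it was 49.0%, 74.5% were wider in sg3, and sg3 had the higher fold enrichment in 53.4%, which crosses an even split. In bands of sg3 −log10 q (10 to 20, 20 to 40, 40 to 80) that share was 44.0%, 64.7% and 69.8%, and in the same bands of V2 it was 38.8%, 35.8% and 34.0%. A tolerance of 200 bases gave 85.4% of summits alike, and an overlap of 50% of the shorter record gave 73.2%. A limit of 50 kb gave a median distance of 12710 bases, a window of 2500 bases put 29.3% of regions at a non-coding gene, and 25.2% of genes with 50 kb or more of space had a region. Thresholds select on strength by construction, and the cause of the other shifts was not tested. Of the values under an alternative that answer a comparison, 24 were kept and 20 moved, where a count is kept within 1.5 times and a share within its interval. Of the list counts, 47 were kept and 7 were not. Without depth, weak regions of 1 list cannot be told from missed ones.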

Other observations

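Some other groups of shared intergenic regions are given here by their nearest genes, picked after their values were seen, from among many groups of like size. A group of 21 regions between SERPINB5, the epithelial protease inhibitor maspin, and VPS4B had median fold enrichments of 6.84 in sg3 and 6.88 in V2. Between DSC1 and DSG1, desmosomal cadherins of differentiated epidermis, 16 regions had medians of 7.66 and 7.21. Near LYPD3, a surface protein of squamous cells, 18 regions covered 70.6% of the bases of their group, with medians of 6.33 and 6.53. PLAU, the urokinase protease, shared a group of 18 with VCL, at 4.85 and 6.21. The group of F2R and F2RL1, receptors that proteases activate, also held 18, at 5.65 and 7.53. CD24, a surface glycoprotein, had 18 at 5.5 and 5.62.

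Weak groups occurred too. The 17 grouped regions beside GRHL2 ran from 2.31 to 4.53 in sg3 with a median of 3.12, and from 2.33 to 5.17 in V2 with a median of 3.97. TFRC, the transferrin receptor gene, had 15 regions with medians of 3.4 in sg3 and 4.06 in V2.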
